A study of Mus musculus with 8 samples.

Results

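The 10 genes described here encode transcription factors of fibroblasts and of the epithelial-to-mesenchymal transition (EMT), and their RNA was compared between ADAM12+ and ADAM12– stromal cells of melanoma. They were the 10 rows, of 53801 genes in the deposited count table, whose gene name is Twist1, Twist2, Prrx1, Snai1, Snai2, Zeb1, Zeb2, Tcf21, Osr1 or Runx1, so the rule used names and no counts. All 10 were found and all 10 had at least 1 read in some library. The cells came from MO5 tumors, which are B16 mouse melanoma cells carrying the ovalbumin gene, grown under the skin of ADAM12-GFP mice on the C57Bl/6 background, 8 to 12 weeks old at implantation and analyzed 8 d later. In these mice a bacterial artificial chromosome places Cre and GFP under the control of Adam12, so GFP marks activity of that transgene rather than ADAM12 protein itself. Stromal cells that were PDPN+ and PDGFRα+ and negative for the leukocyte antigen CD45 and the endothelial antigen CD31 were divided into GFP+ (ADAM12+) and GFP- (ADAM12–) cells, and 4 libraries of each were sequenced. Both groups therefore carry the same transgene and the same tumor, and the labels name no treatment. The paper's legend for this comparison gives a sample size, and its methods state that sample sizes count mice unless specified otherwise. By that rule the libraries of a group came from separate mice, although the sample labels name no mouse. Pooling of tumors within a library is not mentioned, and p-values measure the spread between these libraries.

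EMT factors bind DNA and repress epithelial genes such as the cadherin gene Cdh1, or activate mesenchymal ones. In development and in carcinoma they let epithelial cells detach and move, whereas fibroblasts, which are mesenchymal from the start, express several of them constantly. Twist1 and Twist2 are basic helix-loop-helix (bHLH) proteins that pair with E proteins, Snai1 (Snail) and Snai2 (Slug) are zinc-finger repressors, Zeb1 and Zeb2 carry zinc fingers around a homeodomain, Prrx1 is a paired-related homeobox factor of limb and skin mesenchyme, Osr1 is a zinc-finger factor of connective tissue progenitors, Tcf21 is a bHLH factor of visceral fibroblasts, and Runx1 is a runt-domain factor of blood and of some mesenchyme.

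ADAM12+ cells had more Twist1 and more Snai2 RNA than ADAM12– cells, by 1.75-fold and 3.13-fold, and these were the only members past the threshold. When libraries were scaled to fibroblast markers, the median of all genes moved to -0.89 on the log2 scale. Of 15865 genes tested on that scale, 99 were called higher and 6764 lower. Snai2 was the only member called higher, and 5 others (Zeb2, Osr1, Runx1, Zeb1 and Prrx1) were called lower. Twist1 was at -0.07, or 0.82 above that median. Snai1 was also higher in every GFP+ library, at low counts and without passing the threshold. Zeb2, Zeb1, Runx1, Osr1, Prrx1 and Twist2 did not pass it with the usual size factors, and the fold of Zeb2 was bounded most closely, between 0.855 and 1.19. Tcf21 was near 0 in both groups.

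The sequences shown first are those that bear on how well paralogs can be told apart by counting, and on the DNA words these factors bind. The longest stretch that the coding sequences of Twist1 and Twist2 share letter for letter was 23 bases, in coding exons at chr12:33958380-33958402 and chr1:91801891-91801913 (GRCm38, plus strands, GENCODE M21). The longest shared by Snai1 and Snai2 was 22 bases and starts at the first base of both start codons, at chr2:167538290-167538311 and chr16:14705974-14705995 (plus strands), in the part that encodes the amino-terminal SNAG repressor motif of both proteins.
Twist1 and Twist2: ctgcgcaagatcatccccacgct
Snai1 and Snai2: atgccgcgctccttcctggtca
Zeb1 and Zeb2 shared at most 23 bases, Prrx1 and its paralog Prrx2 19, Osr1 and Osr2 23, and Runx1 and Runx2 26. Reads inside such a stretch cannot be assigned by these letters alone, and how many there were was not measured. On the opposite strand, the annotated neighbor with the most reads was Gm10125 at Zeb1, with 682 reads over the 8 libraries beside 17787 for Zeb1, and the authors counted reads by strand.

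Snail, Slug, ZEB and Twist proteins bind E-boxes, which are CANNTG in general and CAGGTG, which reads on the other strand as CACCTG, for the Snail and ZEB families. The 250 bases before the start of transcription are shown for Twist1, the called member with an entry among the RefSeq promoter sequences (GRCm38.p6), for its paralog Twist2, and for Snai1, shown because its window was seen to hold the Snail and ZEB word. Capitals mark CAGGTG or CACCTG, and all 3 windows are on the plus strand. Of the 10 members, 7 had an entry, and Snai2, Zeb1 and Osr1 had none.
Twist1, chr12:33957421-33957670: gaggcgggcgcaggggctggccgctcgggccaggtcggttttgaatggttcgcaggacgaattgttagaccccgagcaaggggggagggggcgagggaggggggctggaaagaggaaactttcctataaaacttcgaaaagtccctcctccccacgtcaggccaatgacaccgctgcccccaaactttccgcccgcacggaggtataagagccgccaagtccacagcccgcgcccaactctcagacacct
Twist2, chr1:91801211-91801460: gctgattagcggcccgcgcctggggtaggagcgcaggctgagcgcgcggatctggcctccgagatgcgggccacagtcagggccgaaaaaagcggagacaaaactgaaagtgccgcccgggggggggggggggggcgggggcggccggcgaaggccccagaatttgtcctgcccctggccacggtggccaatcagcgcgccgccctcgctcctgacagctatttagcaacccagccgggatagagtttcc
Snai1, chr2:167537945-167538194: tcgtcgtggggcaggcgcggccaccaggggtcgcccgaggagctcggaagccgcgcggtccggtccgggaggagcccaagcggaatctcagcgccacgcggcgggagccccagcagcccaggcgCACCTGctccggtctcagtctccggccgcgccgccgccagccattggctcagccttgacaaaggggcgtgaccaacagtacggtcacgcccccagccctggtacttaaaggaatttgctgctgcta
Neither Twist window held CANNTG, and the Snai1 window held 1 CANNTG, which was CACCTG. The 7 members with an entry had 11 windows in all, since Runx1 had 2 and Zeb2 had 4. Of these, 2 held CANNTG and the same 2 held the Snail and ZEB word, the one of Snai1 and one of Runx1 (chr16:92826075-92826324, minus strand), which held 3 CANNTG, 1 of them CAGGTG. The windows of Prrx1, Tcf21 and Zeb2 held neither. Over all 32851 windows of the same length, 66.2% held CANNTG on either strand and 17.2% held CAGGTG or CACCTG, each of which is also a CANNTG. These matches describe letters, not binding.

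Library totals ran from 883144 reads (GFP- replicate 3) to 31666734 (GFP+ replicate 4), with size factors from 0.0910 to 2.98, so a read of the shallowest library weighs most in a normalised read count, the unit used below (reads over size factor). DESeq2 gave an adjusted p to 15283 genes and called 1439 at an adjusted p under 0.05, 712 higher and 727 lower in GFP+ cells, and edgeR called 732 of 14323. Fibroblast markers were high in both groups, with 7 of 10 called higher and 0 lower by DESeq2 (9 and 0 at an unadjusted p under 0.05) (median log2 fold change 0.82). Their summed normalised counts ran from 263100 to 568300 in GFP- and from 680800 to 780500 in GFP+ libraries. Adam12 itself was 1362 ± 357 in GFP- and 2302 ± 484 in GFP+ libraries (normalised counts, mean ± SD, n = 4; DESeq2 adjusted p 0.0266, edgeR 0.0643), and its DESeq2 call was lost without GFP- replicate 3 or 4 or GFP+ replicate 2 or 4 (adjusted p 0.0689, 0.0852, 0.0767 and 0.117). The log2 fold change of Adam12 was 0.75 with all libraries and ran from 0.60 to 0.87 over the fits without 1 library. Of 17 tested melanocyte genes, which the sort should remove, DESeq2 called 15 lower and 1 higher (Kit, edgeR adjusted p 0.0669), edgeR 14 and 0, and limma voom 15 and 0, and their sums were 31130 to 91210 in GFP- and 6481 to 15760 in GFP+ libraries, with Dct, Tyrp1 and Pmel, genes of melanin synthesis, the most abundant. Leukocyte genes (0 of 11 called by DESeq2, edgeR or limma voom, and 0 at an unadjusted p under 0.05) summed to 6054 in GFP- replicate 3 and 4745 in GFP+ replicate 2 and to 871 to 2420 in the other 6 libraries. Schwann cell genes had 1 higher and 5 lower calls of 7, endothelial 0 and 1 of 6, pericyte 1 and 1 of 6, and keratinocyte 0 and 0 of 3 (endothelial 1 and 2 and keratinocyte 0 and 0 at an unadjusted DESeq2 p under 0.05). Pecam1, which encodes the sort antigen CD31, had a log2 fold change of 0.42 (DESeq2 adjusted p 0.731), but without GFP- replicate 3 it was called higher in GFP+ cells, at 1.31 (DESeq2 adjusted p 0.00439), and limma voom called it with all libraries (1.23, adjusted p 0.0438). In such bulk samples fewer cells of a type and less RNA per cell cannot be told apart.

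Twist1 (ENSMUSG00000035799, chr12:33957671-33959829, plus strand), a regulator of mesoderm and neural crest mesenchyme, was examined first. Normalised read counts in GFP- replicates 1 to 4 were 685, 589, 659 and 513. In GFP+ replicates 1 to 4 they were 1110, 1011, 1185 and 927. Every GFP+ library lay above every GFP- library, and replicates were close, with a coefficient of variation of 12.6% in GFP- and 10.6% in GFP+ libraries. Group means were 612 ± 77.2 and 1058 ± 113 (SD, n = 4). This made a log2 fold change of 0.80 ± 0.18 (SE), that is 1.75-fold with a 95% interval from 1.37 to 2.22, and Twist1 was called by DESeq2 (adjusted p 0.000225) and by edgeR (adjusted p 0.0150), whereas scaling to fibroblast markers, described further on, put it at -0.07, where the median of all genes was -0.89.

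Twist2 (ENSMUSG00000007805, chr1:91801461-91848028, plus strand), known as Dermo1 from its expression in dermis, is the closest paralog. Its normalised counts were 427, 358, 440 and 211 in GFP- replicates 1 to 4. They were 482, 400, 632 and 438 in the GFP+ replicates. The groups overlapped, since GFP- replicates 1 and 3 exceeded GFP+ replicate 2, and GFP- replicate 4 was the lowest of all. Its log2 fold change of 0.47 ± 0.29 was not called (DESeq2 adjusted p 0.358), and the 95% interval of the fold, 0.938 to 2.04, includes both equality and the fold of Twist1. Without GFP- replicate 4 the log2 fold change was 0.27.

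Snai2 (ENSMUSG00000022676, chr16:14705852-14709385, plus strand), the Slug gene, known in neural crest and wound healing, had the largest log2 fold change of the 9 members tested, although without GFP- replicate 4 it was below Snai1 (1.40 against 1.71). It had 155, 181, 121 and 70.9 normalised counts in GFP- replicates 1 to 4. The GFP+ replicates had 424, 426, 559 and 253. No GFP- library reached the lowest GFP+ library, although replicates varied more than for Twist1 (coefficient of variation 36.1% and 30.2%). Means were 132 ± 47.6 and 416 ± 125 (SD, n = 4). On the log2 scale they differed by 1.65 ± 0.37, or 3.13-fold (95% interval 1.90 to 5.15), and both tests called the gene (adjusted p 0.000302 by DESeq2 and 0.0170 by edgeR). In the shallowest library, GFP- replicate 3, these counts rest on 11 reads, and without it the log2 fold change was 1.61 (DESeq2 adjusted p 0.00101).

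Snai1 (ENSMUSG00000042821, chr2:167538195-167542814, plus strand), the Snail gene and the prototype repressor of Cdh1, was the scarcest member after Tcf21. Its raw reads were 9, 53, 3 and 108 in GFP- replicates 1 to 4 and 45, 206, 106 and 356 in the GFP+ replicates. Normalised, these were 12.2, 38.0, 33.0 and 56.7 against 62.5, 86.2, 81.4 and 119. All GFP+ libraries lay above all GFP- libraries, yet the spread within GFP- libraries was wide, from 12.2 to 56.7. The log2 fold change of 1.29 ± 0.53 (95% interval of the fold 1.20 to 4.997) passed the threshold in neither test (adjusted p 0.108 by DESeq2 and 0.271 by edgeR).

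Zeb1 (ENSMUSG00000024238, chr18:5591860-5775467, plus strand), a repressor of epithelial polarity genes, did not pass the threshold. Its normalised counts were 1346, 1380, 1879 and 1078 in GFP- replicates 1 to 4. The GFP+ replicates gave 1390, 1813, 1488 and 1804. The highest of all 8 libraries was GFP- replicate 3 and the lowest GFP- replicate 4. Between groups the log2 fold change was 0.21 ± 0.20 (DESeq2 adjusted p 0.615), with a 95% interval of the fold from 0.878 to 1.53.

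Zeb2 (ENSMUSG00000026872, chr2:44983632-45117395, minus strand), which besides mesenchyme is used by melanocytes and several leukocytes, was the least variable member. Its normalised counts were 5166, 4571, 4626 and 4155 in the GFP- replicates. The GFP+ replicates gave 4509, 4663, 4689 and 4831. All GFP+ values fell inside the GFP- range, and the coefficient of variation was 8.97% in GFP- and 2.83% in GFP+ libraries. On the log2 scale the groups differed by 0.01 ± 0.12 (DESeq2 adjusted p 0.974), and the interval of the fold, 0.855 to 1.19, was the narrowest among the members. The melanocyte sum, given above, was higher in each GFP- library than in any GFP+ library, and its part in the Zeb2 counts was not tested.

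Prrx1 (ENSMUSG00000026586, chr1:163245119-163313710, minus strand), which marks mesenchymal progenitors of skin and limb, had the most reads of the 10 genes. Its normalised counts were 5790, 5141, 5131 and 3257 in GFP- replicates 1 to 4. They were 6142, 5744, 7594 and 6435 in the GFP+ replicates. GFP- replicate 1 was just above GFP+ replicate 2, and apart from this pair of libraries the groups did not overlap. The groups differed by 0.43 ± 0.20 on the log2 scale, a 1.34-fold difference with an interval from 1.02 to 1.77, and with DESeq2 and edgeR adjusted p values of 0.201 and 0.231 it was not called. GFP- replicate 4, the lowest library for Prrx1, Twist1, Twist2, Snai2, Zeb1, Zeb2 and Runx1 alike, also had the lowest fibroblast sum (263100) and the highest melanocyte sum (91210). Without it the log2 fold change of Prrx1 was 0.28, that of Twist1 0.72 (DESeq2 adjusted p 0.00488) and that of Snai2 1.40 (DESeq2 adjusted p 0.00233).

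Osr1 (ENSMUSG00000048387, chr12:9570116-9581500, plus strand), found in embryonic connective tissue and in fibro-adipogenic progenitors, had normalised counts of 1186, 1284, 648 and 664 in the GFP- replicates. The GFP+ replicates gave 993, 754, 978 and 785. The GFP- libraries fell into a high and a low pair with the GFP+ libraries between them. The log2 fold change was -0.12 ± 0.27 (DESeq2 adjusted p 0.868, interval of the fold 0.638 to 1.32), the one negative value among the 9 members tested, and it was 0.06 without GFP- replicate 2.

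Runx1 (ENSMUSG00000022952, chr16:92601466-92826149, minus strand), a gene of blood cells that fibroblasts can also express, had normalised counts of 1125, 951, 2121 and 923 in the GFP- replicates. The GFP+ replicates gave 1346, 1434, 1088 and 1305. GFP- replicate 3, at 2121, exceeded all other libraries and was also the library with the highest leukocyte sum (6054). With it the log2 fold change was 0.04 ± 0.27 (DESeq2 adjusted p 0.966), and without it 0.37 (DESeq2 adjusted p 0.159). The pan-leukocyte gene Ptprc, which encodes CD45, was at 1703 normalised counts in that library, at 1383 in GFP+ replicate 2 and at 119 to 707 in the other 6, and its part in Runx1 was not tested.

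Tcf21 (ENSMUSG00000045680, chr10:22817281-22820174, minus strand), a factor of fibroblasts in heart, lung and kidney, was near the limit of detection. It had 1 read in GFP- replicate 3, 12 in GFP+ replicate 2 and 11 in GFP+ replicate 4, and 0 in the other 5 libraries, where a count of 0 allows up to 3 reads. Summed over libraries and scaled by size factors, the 23 GFP+ reads against 1 GFP- read gave a ratio of 12.8, with an exact 95% interval from 2.09 to 529 that covers counting error only. Group means of the normalised counts lay the other way, 2.75 for GFP- against 2.18 for GFP+, and no direction can be given. DESeq2 gave it no adjusted p, so it was not tested.

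**Figure D1:**
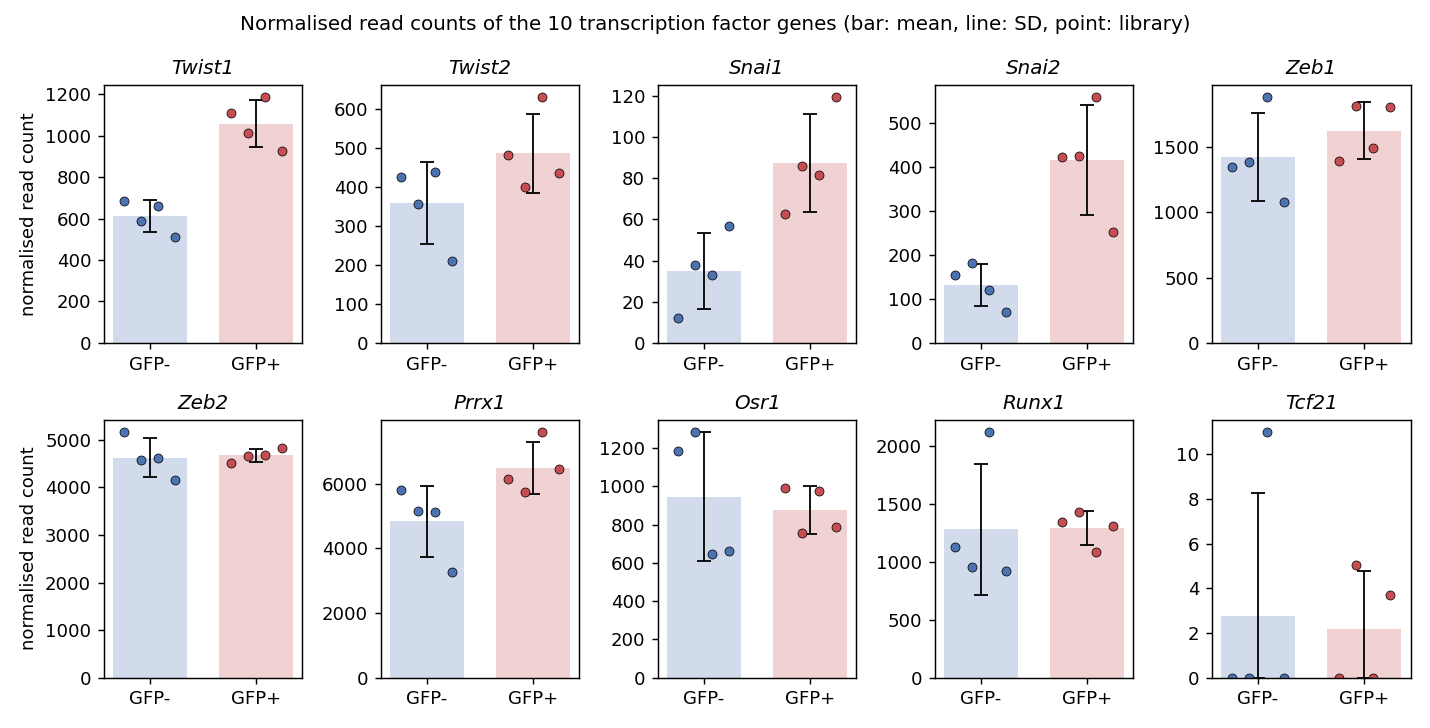
Normalised read counts (y axis, linear, from 0) of each of the 10 genes in GFP- and GFP+ libraries; points are the 4 libraries of a group in the order of their replicate numbers, bars the mean and lines the SD. Twist1, Snai1 and Snai2 show no overlap between groups, Runx1 and Tcf21 each have 1 high GFP- library, and Zeb2 is level.

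Counted over the list, 2 of the 9 members tested were called higher and 0 lower by DESeq2, beside 4.66% of all tested genes called higher and 4.76% lower. At an unadjusted p under 0.05, 4 were higher and 0 lower, beside 10.2% and 10.8% of all tested genes. The edgeR test called the same 2 higher and 0 lower, Twist1 and Snai2 (limma voom also gave 2 and 0), beside 2.83% of all genes higher and 2.28% lower. In 3 members, Twist1, Snai2 and Snai1, every GFP+ library exceeded every GFP- library, as it did in 6.37% of tested genes. Log2 fold changes were positive in 8 of the 9, with a median of 0.43, while the median over all tested genes was -0.01 and 7569 of 15283 were positive. On the fibroblast-marker scale, whose all-gene median was -0.89, 1 member was called higher and 5 lower, beside 99 and 6764 of 15865 genes. Snai1 and Snai2 stayed above 0 there. The same 8 members lay above that median, which follows from a scale that shifts all genes nearly alike and is no separate result. With 9 genes these counts are a description of the list.

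Ratios of paralogs within a library were taken from normalised counts plus 1, so the size factor enters only through this pseudocount, and 3 were set against the 70 possible divisions of the libraries in exact permutation tests, two-sided. The log2 ratio of Twist2 to Twist1 was -0.68, -0.72, -0.58 and -1.28 in the GFP- and -1.20, -1.34, -0.91 and -1.08 in the GFP+ replicates. Twist2 was thus below Twist1 in each of the 8 libraries. The group difference, GFP+ minus GFP-, was -0.32 (exact p 0.143, adjusted over the 3 ratios 0.429). Snai2 exceeded Snai1 in each library too, by 1.99 ± 1.33 in GFP- and 2.22 ± 0.79 in GFP+ libraries on the log2 scale (SD, n = 4; exact p 0.771, adjusted 0.771), and the group difference of 0.23 turned to -0.32 without GFP- replicate 4. Zeb2 exceeded Zeb1 by 1.73 ± 0.30 and 1.53 ± 0.17 (SD, n = 4; exact p 0.314, adjusted 0.471). None of the 3 differences passed the threshold. The smallest p such a test can give here is 0.0286, which for a single ratio becomes 0.0857 once adjusted, so no ratio could have passed on its own and nothing is read from the misses.

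Levels of different genes were compared as normalised reads per kilobase of annotated exon. In GFP- libraries Osr1 (458 ± 163), Prrx1 (437 ± 98.8) and Twist1 (376 ± 47.4) came first, and no gap between them exceeded the SDs of both genes (n = 4). Zeb2 (232 ± 20.8) and Zeb1 (138 ± 32.5) followed, each apart from the gene above it by more than both SDs. Twist2 (113 ± 33.1), Runx1 (106 ± 47.2) and Snai2 (65.3 ± 23.6) came next. By the same measure Twist2 lay above Snai2, while Runx1 could not be told from either, and Snai1 (21.6 ± 11.3) and Tcf21 (1.17 ± 2.34) were lowest. In GFP+ libraries the order began with Twist1 (650 ± 69.2) and Prrx1 (585 ± 71.9), which overlapped, and then Osr1 (425 ± 60.7), Zeb2 (234 ± 6.63) and Snai2 (206 ± 62.0). Snai2 thus stood at rank 8 in GFP- and rank 5 in GFP+ libraries, where it was within the spread of Zeb2, Zeb1 (158 ± 21.1) and Twist2 (154 ± 32.0) and above Runx1 (108 ± 12.2). Dividing by the longest annotated transcript instead put Prrx1 at rank 1 in both groups (740 and 993) and Twist1 at rank 4 (376) and rank 2 (650). It also put Zeb2 at rank 2 in GFP- libraries (507) and rank 3 in GFP+ libraries, and Snai2 at ranks 8 and 7, so most of the rise of Snai2 in rank depends on the length used.

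**Figure D2:**
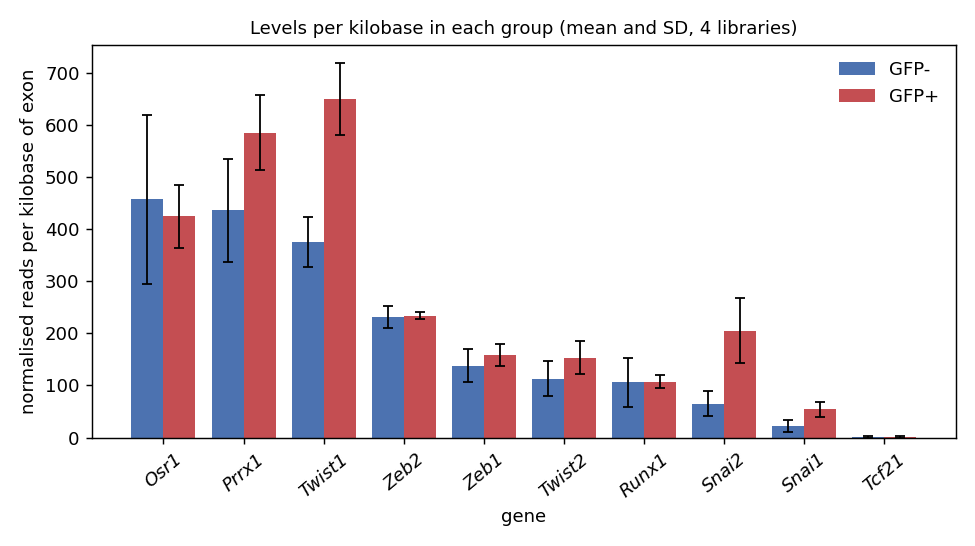
Mean level of each gene in normalised reads per kilobase of exon (y axis, linear, from 0) in GFP- (blue) and GFP+ (red) libraries, with the SD over 4 libraries; genes are ordered by their GFP- mean. Twist1 rises from 376 to 650 and Snai2 from 65.3 to 206 on this scale, while Zeb2 stays at 232 and 234. Scaled to fibroblast markers, the log2 fold change of Twist1 is -0.07, where the median of all genes is -0.89.

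Because fibroblast markers were themselves higher in GFP+ libraries, the fit was repeated with size factors taken from those 10 genes, a choice made after seeing the data. On this scale the median of all 15865 tested genes was -0.89. Of these genes 99 were called higher and 6764 lower, beside 712 and 727 of 15283 with the usual size factors. Snai2 was still called higher, at 0.81 (DESeq2 adjusted p 0.0410). Twist1 was at -0.07 (DESeq2 adjusted p 0.799) and was no longer called. Osr1 (-0.97), Zeb2 (-0.84), Runx1 (-0.79), Zeb1 (-0.62) and Prrx1 (-0.41) were called lower, with DESeq2 adjusted p values from 0.000131 to 0.0445. Twist2 was at -0.37 and was not called (DESeq2 adjusted p 0.211). Taken from the all-gene median of this scale, the values were 1.70 for Snai2, 0.82 for Twist1, 0.48 for Prrx1, 0.05 for Zeb2 and -0.08 for Osr1. Subtracting that median largely undoes the rescaling, since the usual size factors gave 1.65 for Snai2 and 0.80 for Twist1. These values are therefore no separate result.

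**Figure D3:**
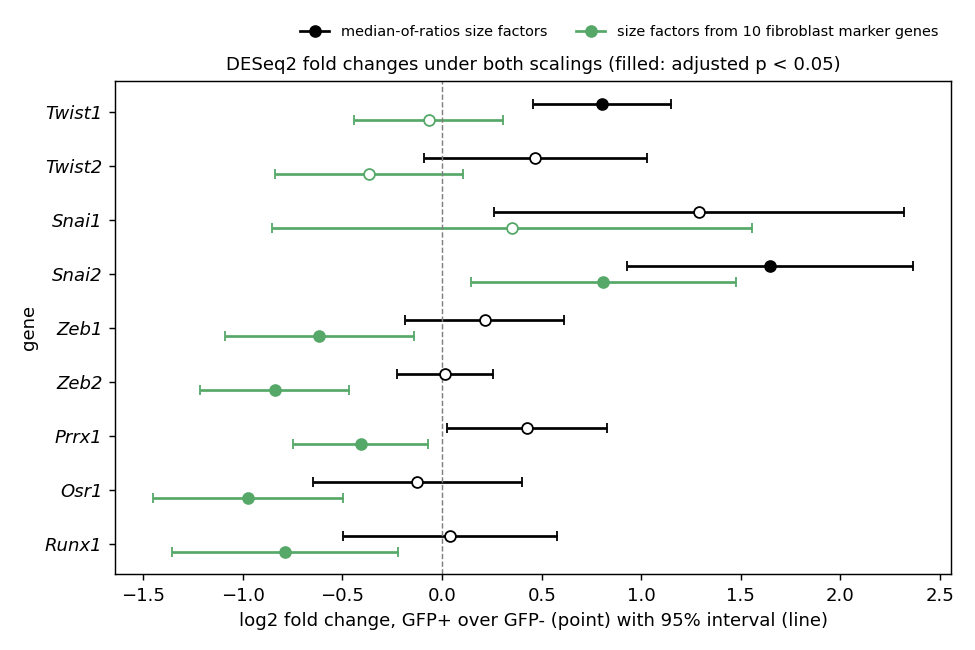
Log2 fold change of GFP+ over GFP- (x axis) for the 9 tested members with DESeq2's median-of-ratios size factors (black) and with size factors from 10 fibroblast markers (green); lines are 95% intervals and filled points passed an adjusted p of 0.05. Snai2 is to the right of 0 and filled under both scalings, and Twist1 moves from 0.80 to -0.07. The median of all genes moves from -0.01 to -0.89.

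Paralogs and partners of the members were examined next. Of 12 tested, DESeq2 and edgeR called 1 higher and 0 lower (median 0.56), with 4 and 1 at an unadjusted DESeq2 p under 0.05, and limma voom called 2 and 0. This was Tcf4, an E protein that dimerizes with Twist proteins. It had 2068, 1754, 2022 and 1634 normalised counts in the GFP- and 3547, 2847, 3199 and 2715 in the GFP+ replicates. The groups were well apart, with a log2 fold change of 0.72 ± 0.16 (DESeq2 adjusted p 0.000231, edgeR 0.0132), which fibroblast scaling moved to -0.15. Tcf12, another E protein, lay the other way, at 2424 ± 183 in GFP- and 1871 ± 229 in GFP+ libraries (SD, n = 4) without overlap, but its log2 fold change of -0.38 ± 0.15 was not called (DESeq2 adjusted p 0.0993). Osr2 was at 0.61 ± 0.28 and was not called either (DESeq2 adjusted p 0.163), but it was at 0.36 without GFP+ replicate 1, and without GFP+ replicate 4 it was called, at 0.80 (DESeq2 adjusted p 0.0108).

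Among 37 tested transcription factors of other mesenchymal programs, 4 were called higher and 5 lower (median 0.13), and edgeR called 3 and 3. The higher ones were Nfia, a nuclear factor I gene, at 0.62 ± 0.17, Nfatc4, a calcineurin-regulated factor, at 1.09 ± 0.30, En1, a homeobox gene that marks a dermal fibroblast lineage, at 1.10 ± 0.31, and Tshz3 at 0.63 ± 0.20. The lower ones were Sox11, Hmga2, Eya1, Foxc1 and Foxs1. Foxc1, a forkhead factor, was at -2.85 ± 0.75 (DESeq2 adjusted p 0.00331) with overlapping groups, and it was called neither by edgeR (adjusted p 0.0590) nor without GFP- replicate 4 (DESeq2 adjusted p 0.0741), and was at -3.62 without GFP+ replicate 2. Foxs1 (DESeq2 adjusted p 0.0415) was not tested by edgeR. Sox11, a factor of embryonic neural and mesenchymal progenitors, had 330, 356, 275 and 435 normalised counts in GFP- and 48.6, 74.1, 39.95 and 133 in GFP+ replicates, a log2 fold change of -2.24 ± 0.39 (DESeq2 adjusted p 1.25e-06). Hmga2, a chromatin protein that is active in embryos and tumors, was at -2.63 ± 0.50 (DESeq2 adjusted p 9.64e-06; -3.29 without GFP+ replicate 1), and Eya1, a developmental co-activator, at -3.14 ± 0.71 (DESeq2 adjusted p 0.000348). All 4 GFP- libraries exceeded all GFP+ libraries for Sox11, Hmga2 and Eya1, as they did for the melanocyte sum, whose part in these was not tested. Leaving out GFP- replicate 1 or either of GFP+ replicates 3 and 4 ended the call of Eya1 (DESeq2 adjusted p 0.104, 0.122 and 0.0503), with log2 fold changes of -3.07, -2.96 and -3.40 and larger SEs of 1.22, 1.18 and 1.19. Ebf1 and Nfib, the most abundant of those not called, were at 0.31 and 0.56 (DESeq2 adjusted p 0.436 and 0.0535). Nfib was called higher in 5 of 16 alternatives, among them limma voom (adjusted p 0.0307) and the DESeq2 fit that left out GFP- replicate 1 (log2 fold change 0.71, adjusted p 0.00590). Ebf1 became a call when GFP- replicate 3 was left out (0.50, DESeq2 adjusted p 0.0499).

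General lists of epithelial genes were examined too, which were not chosen as established targets of Snail, ZEB and Twist proteins. Of 7 junction and keratin genes tested, DESeq2, edgeR and limma voom called 0 in either direction (median -0.51), with 0 higher and 1 lower at an unadjusted DESeq2 p under 0.05. The most abundant were Krt19, a keratin gene, at 169 ± 34.4 normalised counts for GFP- and 119 ± 46.2 for GFP+ cells, and Jup, the plakoglobin gene of cell junctions, at 157 ± 39.9 and 188 ± 104 (SD, n = 4), with log2 fold changes of -0.51 and 0.27 (DESeq2 adjusted p 0.436 and 0.794). The groups overlapped for both. Cdh1, the E-cadherin gene, was scarcer, and had 0 to 41.0 normalised counts in GFP- and 2.78 to 13.8 in GFP+ libraries, at -1.77 ± 0.99 (DESeq2 adjusted p 0.303). Among epithelial transcription and splicing factors only 3 of 12 could be tested. DESeq2 called 1 higher, Klf5, a Krüppel-like factor of epithelia and smooth muscle, and 0 lower (also 0 lower at an unadjusted p under 0.05 and by edgeR; limma voom called neither). It had 17.6, 40.1, 65.9 and 88.2 normalised counts in GFP- and 457, 145, 213 and 159 in GFP+ replicates, with a log2 fold change of 2.22 ± 0.54 (DESeq2 adjusted p 0.00127, edgeR 0.0323), and on the fibroblast scale it was at 1.18 and not called (DESeq2 adjusted p 0.0853).

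Genes of the mesenchymal state that accompany EMT gave 4 higher and 1 lower of 19 tested (median 0.33), and edgeR called 2 and 0. Cdh11, a cadherin of mesenchyme, had 1813, 1137, 1231 and 753 normalised counts in GFP- and 4335, 3782, 4747 and 3555 in GFP+ replicates. Its log2 fold change was 1.74 ± 0.26 (DESeq2 adjusted p 3.37e-09), and it was 0.90 on the fibroblast scale. Fap, a membrane protease of activated fibroblasts, was at 1.21 ± 0.17 (DESeq2 adjusted p 5.91e-10) without overlap of the groups, and on the fibroblast scale it was at 0.34 and not called (DESeq2 adjusted p 0.158). Sparc (0.71) and Col5a2 (0.68), both matrix genes, were called by DESeq2 (adjusted p 0.0410 and 0.0480) and not by edgeR (0.0906 and 0.0983), and leaving out GFP- replicate 3 or any GFP+ library ended the call of Sparc (DESeq2 adjusted p from 0.0501 to 0.109). The log2 fold change of Sparc was 0.69 without GFP- replicate 3 and ran from 0.52 to 0.84 over all fits without 1 library. Tnc, a matrix glycoprotein of wounds and tumors, was called lower at -1.10 ± 0.34 (DESeq2 adjusted p 0.0208, edgeR 0.0737), and leaving out GFP- replicate 3 or either of GFP+ replicates 2 and 3 ended the call (DESeq2 adjusted p 0.112, 0.0783 and 0.0510). Fn1 and Fbn1, the most abundant of those not called, were at -0.58 and 0.42 (DESeq2 adjusted p 0.0739 and 0.235). Fn1 was called lower in 4 of 16 alternatives, among them without GFP- replicate 4 (-0.73, DESeq2 adjusted p 0.00253) and without GFP- replicate 3 (-0.66, DESeq2 adjusted p 0.0480).

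Co-repressors and turnover factors, such as the demethylase gene Kdm1a that Snail recruits and the kinase gene Gsk3b that marks Snail for degradation, gave 0 calls in either direction among 18 tested by DESeq2 and by edgeR (median -0.01), while limma voom called 1 higher, and 2 were higher and 1 lower at an unadjusted DESeq2 p under 0.05. The most abundant were Csnk1a1, at 0.07 ± 0.17 (DESeq2 adjusted p 0.882), and Gsk3b, at -0.17 ± 0.20 (DESeq2 adjusted p 0.701).

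**Figure D4:**
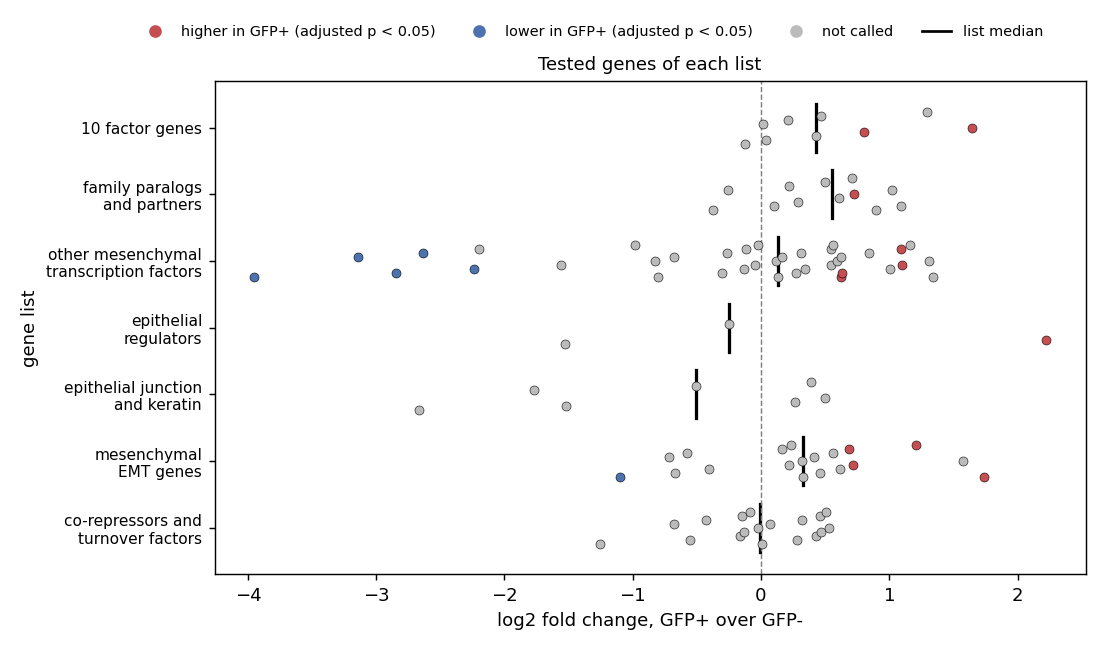
Log2 fold change of GFP+ over GFP- (x axis) of each tested gene in the 10 factor genes and in 6 other lists (y axis, with points offset for legibility); red and blue points were called higher and lower by DESeq2, grey ones were not, and black bars are list medians. Calls lie on both sides of 0 among the other mesenchymal factors and on the right among the 10 factor genes. Scaled to fibroblast markers, Twist1 moves to -0.07 and the median of all genes to -0.89.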

How the data were processed

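Low-input, strand-preserving libraries (SMARTer Pico) of RNA from sorted stromal cells had been read on an Illumina NextSeq. Per the submitters' processing notes, the authors trimmed reads with cutadapt 3.4, mapped them to GRCm38 with STAR 2.7.3a and counted them per Ensembl gene by strand with featureCounts 2.0.1. They deposited raw counts per gene and library, which were used here. The same table holds the authors' normalised counts and their own DESeq2 fold changes and p-values, which were not used. Per-sample count columns left unused: 0.

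Groups came from the sample labels. DESeq2 1.42.0 (R 4.3.3; a model of group alone with default size factors and independent filtering, two-sided Wald tests, Benjamini-Hochberg adjustment over all genes tested) gave the calls at an adjusted p under 0.05, and edgeR 4.0.16 (quasi-likelihood test, TMM) was run beside it. Alternatives were limma 3.58.1 voom, TMM factors in DESeq2, DESeq2 without independent filtering or without its filter on Cook's distance, a block for replicate number, genes averaging 10 raw counts or more, each library left out in turn, pseudocounts of 0.1 and 10 in the ratios (1 in the main analysis) and, added after seeing the data, size factors from the 10 fibroblast markers. Positions and exon lengths came from GENCODE M21 (GRCm38), and promoters from RefSeq. Replicates of a group differed by a chi-square per degree of freedom of 10.2 to 81.3, so none was a duplicate. The labels give no batch.

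The members and lists were chosen with earlier results of these data known. Named were the 10 members, up to 4 called genes with the smallest adjusted p and up to 2 uncalled genes with the highest mean from each other list, the sort markers, and up to 3 of the most abundant genes of each marker list. Nfia, Nfatc4, En1, Tshz3, Foxs1, Col5a2, Cdh1 and Kit were named after their values were seen. In the tables used here the symbols Si and Mrtfa did not match, Foxf1, Foxc2, Cldn7 and Higd1b had no count, and neither had the first of 2 rows named Itgam, which was the one used. On simulated counts of the GFP+ against GFP- comparison (25511 genes), DESeq2 recovered 5 of 67 genes changed 1.5-fold, 27 of 67 changed 2-fold and 48 of 66 changed 4-fold, with 76 false calls, and edgeR 1, 12 and 37, with 2. No molecular identifiers were used in counting, so printed counting intervals cover counting error only.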

Additional observations from a re-analysis of the deposited data

Results flagged for a closer look

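Of 50 groups of 4 libraries checked for a library far from its others, 3 had one, and chance gives about 1 in 20. All 3 were in GFP- replicate 3, the library with the fewest reads. Runx1 was at 2121 normalised counts there and at 923 to 1125 in the other GFP- libraries. Tcf21 was at 10.99, from 1 read, and at 0 in the others. The endothelial gene Pecam1, which encodes CD31, was at 516 and at 81.0 to 123 in the others, and without GFP- replicate 3 it was called higher in GFP+ cells (log2 fold change 1.31, DESeq2 adjusted p 0.00439).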

How the results depend on the processing

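Twist1 and Snai2 were the 2 members called under every setting other than fibroblast-marker scaling, edgeR, limma voom and each fit without 1 library included (2 to 2), with DESeq2 adjusted p values across those 8 fits from 0.000191 to 0.00738 for Twist1 and from 6.49e-05 to 0.00825 for Snai2. Snai1 stayed above the threshold (0.0620 to 0.340). Genes called in all fell to 732 with edgeR and ran from 969 (without GFP- replicate 4) to 1837 (without GFP- replicate 3) when 1 library was left out. Calls in the other lists, 16 in the main analysis, were 10 with edgeR and 10 to 18 with 1 library left out, lowest without GFP+ replicate 3. The group differences of the 3 paralog ratios missed an unadjusted threshold in each alternative that could have passed it, and that of Snai2 over Snai1 ran from -0.32 to 0.76 with 1 library left out.

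With size factors from the fibroblast markers, 6863 of 15865 tested genes, 6 members and 44 genes of the other lists were called. The median log2 fold change of all genes moved from -0.01 to -0.89. With that shift, log2 fold changes turned negative for Twist1 (-0.067), Twist2 (-0.37), Prrx1 (-0.41), Zeb1 (-0.62), Zeb2 (-0.84), Runx1 (-0.79), Tcf4 (-0.15), Sparc (-0.10), Fbn1 (-0.42), Csnk1a1 (-0.81), Osr2 (-0.30), Ebf1 (-0.52), Nfib (-0.27), Jup (-0.64), Adam12 (-0.051), Pdpn (-0.17) and Pecam1 (-0.38), in a scale built to set the median of those markers level. Taken from the all-gene median, values were 0.82 for Twist1, 0.52 for Twist2, 0.48 for Prrx1, 0.27 for Zeb1, 0.05 for Zeb2 and 0.10 for Runx1. That subtraction largely undoes the shift, so these values are no separate check of direction.

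Whether libraries of equal replicate number shared a mouse or a sort is not stated. Deviations of same-numbered libraries correlated at 0.05, -0.16, -0.12 and 0.26, and with so few libraries these values cannot decide it. With the replicate block, 1492 genes, 2 members and 22 genes of the other lists were called, and in the sign-flip test of the ratios with the replicate block the differences were -0.32 for Twist2 over Twist1, 0.23 for Snai2 over Snai1 and -0.19 for Zeb2 over Zeb1 (exact p 0.250, 0.500 and 0.375), in a test whose smallest p is 0.125.

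GFP- replicate 3 held 3 reads of Snai1, and without it the log2 fold change was 1.26 (DESeq2 adjusted p 0.110). DESeq2 recovered a 2-fold change in 27 of 67 simulated cases, all drawn from genes above a minimum mean level. Recovery among scarcer genes was not simulated.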
